A study of Mus musculus with 4 samples.

Results

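The genes described are 34 glycolysis and hypoxia-response genes, chosen by name from knowledge of both programmes. The choice was made with earlier results of these data known, so it was not blind to the values. They comprise 16 genes of glucose uptake and the glycolytic chain, 5 genes that set the flow through it, 12 targets of the hypoxia-inducible factor (HIF) outside glycolysis, and Hif1a itself. Of the 34, 30 were measured among 22180 named genes on the array, each read at its probe set with the highest mean level. Aldoa and Ankrd37 have only a probe set that also carries the name of another gene, no probe set used here carries the name of Gpi1 or Eno1, and these 4 genes were not analysed here. All 30 measured members lay above the 40th percentile of mean level (4.77 on the log2 scale), with Slc16a3 lowest at 4.87 with GSK-126 and 4.90 with DMSO.

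The study compared mammary tumour cells treated with 2 µM GSK-126 for 96 h (n = 2 arrays) with cells given the vehicle DMSO for the same time (n = 2 arrays). GSK-126 inhibits EZH2, the enzyme that places the repressive histone mark H3K27me3. Both groups were cultured lines derived from mammary tumours of MMTV-NIC animals (female, FVB strain), where the MMTV promoter drives an activated ErbB2 together with Cre recombinase in mammary epithelium. All cells grew in medium with serum, EGF, hydrocortisone, insulin and pituitary extract in a CO2 incubator, and the labels give no oxygen level. They also do not say whether the arrays of a group are separate lines or separate cultures, so the p-values reflect the spread between these 4 arrays alone, and that spread may be technical. Total RNA was read on single-channel Affymetrix arrays, and values are log2 expression. Differences are GSK-126 minus DMSO on that scale with their standard error (SE).

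Cells sense oxygen through HIF, a pair of an alpha subunit and the partner ARNT. With oxygen present, prolyl hydroxylases mark the alpha subunit, VHL binds it and it is degraded. When oxygen or hydroxylase activity is short, the factor persists and switches on genes for glucose uptake, glycolysis, blood vessel growth, acid handling, mitochondrial turnover and collagen modification. Tumours of the breast often run glycolysis at high flow, and most glycolytic genes are known HIF targets as well as targets of growth signalling. HIF binds a short core written ACGTG or GCGTG.

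That core was searched on both strands in RefSeq windows (GRCm38.p6) from 250 bases before to 50 bases after each annotated start, where a palindromic CACGTG counts once on each strand. Windows were found for 29 of the 30 measured members. At least 1 window of 28 of these 29 genes held a core, against 53.1% of 16990 array genes with a window. ACGTG alone was present for 9 of 10 HIF targets outside glycolysis and for 10 of 13 genes of the glycolytic chain, against 23.8% of the array genes. A gene can have several windows. Counted by window, 33 of 39 member windows held a core, against 50.1% of 20611 windows of array genes. The members were chosen by name as genes of these programmes, so shares above those of array genes are no independent result. The 250 bases before the start are shown for 8 of the genes described below, with every core, on either strand, in capitals. They are Hif1a at chr12:73907617-73907866 (plus strand), Bnip3 at chr7:138909507-138909756 (minus strand), P4ha1 at chr10:59323046-59323295 (plus strand), Car9 at chr4:43506776-43507025 (plus strand), Egln3 at chr12:54203875-54204124 (minus strand), Pfkfb3 at chr2:11553930-11554179 (minus strand), Aldoc at chr11:78322823-78323072 (plus strand) and Pgk1 at chrX:106186850-106187099 (plus strand). Each is written 5′ to 3′ on the strand of the gene.
Hif1a: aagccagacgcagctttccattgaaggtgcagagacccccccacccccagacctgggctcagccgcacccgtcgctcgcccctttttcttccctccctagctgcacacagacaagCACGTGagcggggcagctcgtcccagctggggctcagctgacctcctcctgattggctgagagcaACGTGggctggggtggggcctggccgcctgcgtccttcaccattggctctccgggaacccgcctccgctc
Bnip3: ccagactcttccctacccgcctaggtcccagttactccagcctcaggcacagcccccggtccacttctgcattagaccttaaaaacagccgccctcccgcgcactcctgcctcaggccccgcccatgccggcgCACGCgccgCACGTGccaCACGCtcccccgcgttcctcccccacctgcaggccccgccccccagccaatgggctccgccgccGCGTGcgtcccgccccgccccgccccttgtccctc
P4ha1: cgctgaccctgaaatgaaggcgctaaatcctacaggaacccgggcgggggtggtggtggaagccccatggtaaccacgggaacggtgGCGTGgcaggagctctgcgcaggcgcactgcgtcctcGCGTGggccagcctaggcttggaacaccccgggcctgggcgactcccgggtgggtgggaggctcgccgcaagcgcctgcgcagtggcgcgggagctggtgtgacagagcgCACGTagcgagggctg
Car9: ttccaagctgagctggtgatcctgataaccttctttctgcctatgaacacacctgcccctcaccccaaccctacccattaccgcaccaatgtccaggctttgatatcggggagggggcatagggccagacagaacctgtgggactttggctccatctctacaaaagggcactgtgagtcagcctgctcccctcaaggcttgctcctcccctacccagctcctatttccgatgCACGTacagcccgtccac
Egln3: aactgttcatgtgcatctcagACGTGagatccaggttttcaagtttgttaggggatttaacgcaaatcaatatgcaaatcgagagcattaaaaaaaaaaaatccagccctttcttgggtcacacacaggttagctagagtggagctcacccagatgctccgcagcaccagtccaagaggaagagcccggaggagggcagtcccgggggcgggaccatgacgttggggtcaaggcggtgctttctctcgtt
Pfkfb3: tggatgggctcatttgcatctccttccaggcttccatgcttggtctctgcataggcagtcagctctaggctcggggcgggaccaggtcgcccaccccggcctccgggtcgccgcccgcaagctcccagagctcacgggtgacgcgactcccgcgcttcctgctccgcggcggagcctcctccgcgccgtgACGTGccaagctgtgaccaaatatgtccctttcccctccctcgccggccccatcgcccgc
Aldoc: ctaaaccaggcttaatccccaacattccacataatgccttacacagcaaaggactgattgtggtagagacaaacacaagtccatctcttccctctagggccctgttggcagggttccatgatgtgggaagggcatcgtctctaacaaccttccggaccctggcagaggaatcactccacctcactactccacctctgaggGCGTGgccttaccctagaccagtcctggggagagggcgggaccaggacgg
Pgk1: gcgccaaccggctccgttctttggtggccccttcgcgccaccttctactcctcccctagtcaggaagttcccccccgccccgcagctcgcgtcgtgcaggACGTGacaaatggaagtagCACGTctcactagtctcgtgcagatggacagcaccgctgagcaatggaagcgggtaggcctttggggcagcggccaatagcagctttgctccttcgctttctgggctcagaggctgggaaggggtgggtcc
The genes shown include ones with higher values with GSK-126 (Hif1a, Bnip3, P4ha1, Pfkfb3), ones with lower values (Car9, Egln3, Aldoc) and one with a small difference (Pgk1). Each of these stretches holds at least 1 core, whichever way the values of the gene lay. That does not hold for all genes described below. The windows of Tpi1 and of Eno2, a gene outside the members that passed the threshold, held 0 cores. A match of letters does not show binding.

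None of the 30 measured members passed the threshold of an adjusted p of 0.05 in limma, against 0.433% of all genes. That background was 0.261% for higher and 0.171% for lower genes. Before adjustment, 7 members with a higher value under GSK-126 and 2 with a lower one had a p below 0.05, whereas 10.6% of all genes did (4.64% higher and 5.93% lower). Among these members, signs differed by role. Of the 11 measured HIF targets outside glycolysis, 9 had a higher mean with GSK-126, against 48% of all genes. Of the 13 measured genes of the glycolytic chain, 11 had a lower mean, mostly by small amounts, against 52% of all genes, dim ones included. Hif1a and the genes of the glycolytic switch enzymes Pfkfb3 and Pfkfb4 stood with the first group, and Aldoc had the largest difference downward. Outside the members the split was weaker. Of 27 other measured HIF-induced genes, 15 had a higher mean and 12 a lower one. Of 21 other measured glycolytic isoenzymes and carriers, 11 had a higher mean and 10 a lower one.

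**Figure D1:**
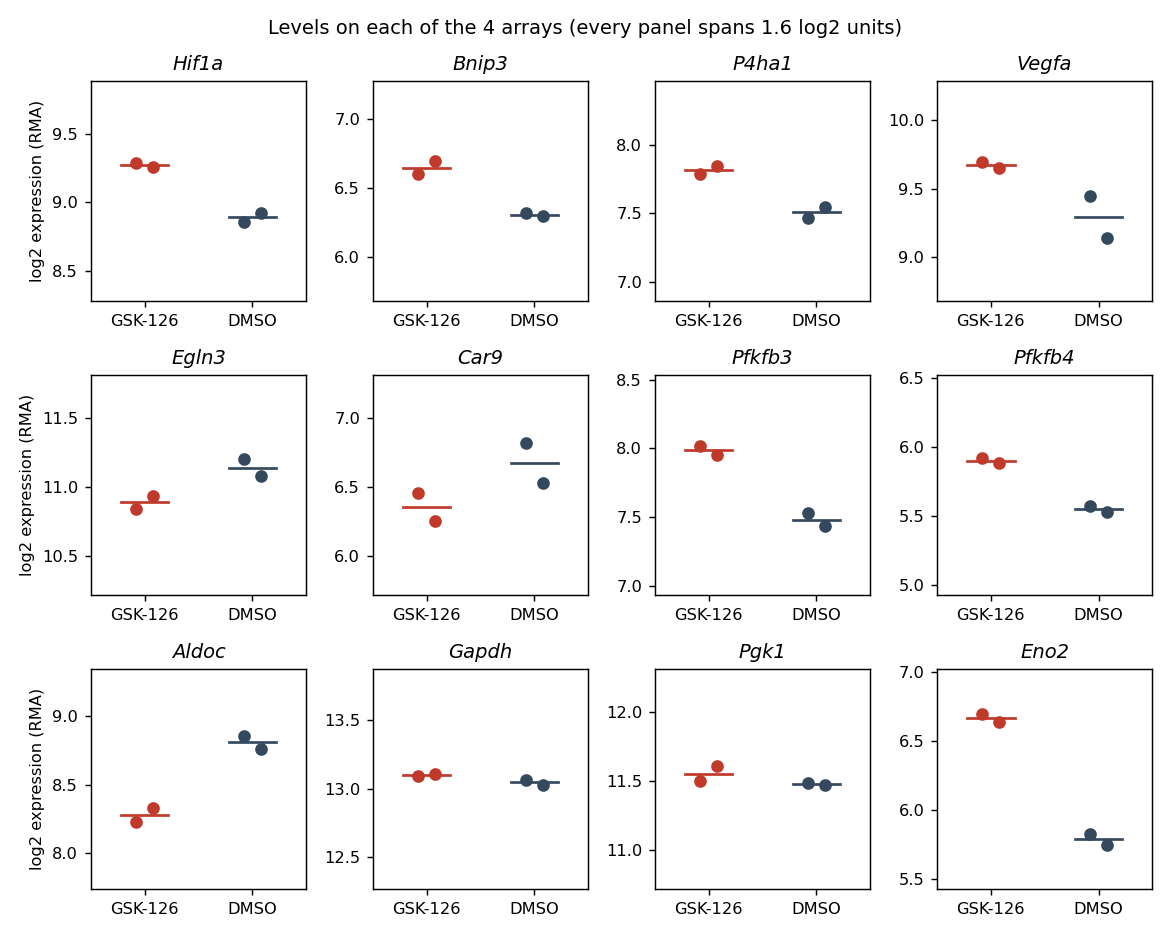
Log2 expression (vertical axis) of 12 genes on each array, GSK-126 arrays in red and DMSO arrays in grey, with horizontal lines at group means (n = 2 each). Every panel spans the same height. Hif1a, Bnip3, P4ha1, Pfkfb3, Pfkfb4 and Eno2 were higher on both GSK-126 arrays, Egln3, Car9 and Aldoc lower, and Gapdh and Pgk1 nearly level.

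Hif1a encodes the oxygen-regulated alpha subunit. It had 9.29 and 9.26 on the GSK-126 arrays, against 8.86 and 8.93 on the DMSO arrays. Both treated arrays were above both controls, and the difference was 0.38 (SE 0.08), or 1.30-fold, with an unadjusted p of 0.00192 and an adjusted p of 0.164. A second Hif1a probe set was dim in both groups and gave 0.12 (SE 0.19). The values concern messenger RNA, while HIF is controlled mainly through the stability of the protein, which was not measured here.

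Of 18 other genes of the HIF system, 15 were measured and 0 passed in limma, with an unadjusted p below 0.05 for 1 higher and 2 lower genes. These 3 were also the named ones. Epas1, which encodes the HIF-2 alpha subunit, had 7.88 and 7.90 with GSK-126 against 8.51 and 8.12 with DMSO, a difference of -0.43 (SE 0.13, adjusted p = 0.331). Arnt, the common partner, had 8.62 and 8.68 with GSK-126 against 8.91 and 8.92 with DMSO, a difference of -0.27 (SE 0.08, adjusted p = 0.323). Both alpha subunit genes thus lay on opposite sides of their controls, Hif1a above and Epas1 below, and a test of that contrast was not made. Eloc, the elongin C partner of VHL, differed by 0.23 (SE 0.09, adjusted p = 0.438). The median over the 15 was -0.01.

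The groups did not overlap for any of the 11 measured HIF targets outside glycolysis, 9 of them higher with GSK-126 and 2 lower. Over all genes, groups did not overlap for 40.1%, with 18.2% higher and 21.8% lower. In limma 0 of the 11 passed. An unadjusted p below 0.05 was found for 4 higher and 1 lower, against 4.64% and 5.93% of all genes. The median difference of the 11 was 0.19, against -0.01 over all genes. It lay between 0.14 and 0.22 when 1 array was left out.

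Among the secreted factors, Vegfa, which drives blood vessel growth, had 9.69 and 9.65 with GSK-126 against 9.45 and 9.14 with DMSO. The treated arrays lay close together and the controls far apart, and the difference of 0.38 (SE 0.11, adjusted p = 0.308) was 0.53 without DMSO replicate 1 and 0.22 without DMSO replicate 2. Adm, a vasodilator peptide, had 5.33 and 5.44 with GSK-126 against 4.89 and 5.16 with DMSO, a difference of 0.36 (SE 0.15, adjusted p = 0.464). It was 0.23 without DMSO replicate 1 and 0.50 without DMSO replicate 2.

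For the mitochondrial proteins, Bnip3, a receptor that marks mitochondria for removal, had 6.60 and 6.69 with GSK-126 and 6.31 and 6.30 with DMSO. Its arrays agree closely within each group, with a difference of 0.34 (SE 0.11, adjusted p = 0.345). Higd1a, an inner-membrane protein linked to the respiratory chain, differed by 0.15 (SE 0.10). Its GSK-126 replicate 1, at 7.45, was only just above the higher control at 7.41, and the difference was 0.06 without GSK-126 replicate 2.

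The collagen prolyl hydroxylase subunits P4ha1 and P4ha2, which prepare collagen chains for a stable triple helix, were both higher. P4ha1 had 7.79 and 7.84 with GSK-126 against 7.47 and 7.55 with DMSO, a difference of 0.31 (SE 0.09, adjusted p = 0.312). P4ha2 differed by 0.24 (SE 0.11, adjusted p = 0.508), with 6.70 and 6.54 against 6.40 and 6.35 in DMSO. For the stress-response genes, Ndrg1, a gene induced on differentiation and stress, had 9.977 and 10.002 with GSK-126 and 9.753 and 9.852 with DMSO. Ddit4, an inhibitor of the growth kinase complex mTORC1, had 9.59 and 9.54 with GSK-126 against 9.25 and 9.52 with DMSO. Ndrg1 differed by 0.19 (SE 0.08) and Ddit4 by 0.18 (SE 0.11). The value of Ddit4 rested on DMSO replicate 1, since it was 0.05 without that array.

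The oxygen-sensing hydroxylases that mark HIF alpha lay on different sides. Egln3 had 10.84 and 10.94 with GSK-126 against 11.20 and 11.08 with DMSO, a difference of -0.25 (SE 0.09, adjusted p = 0.382). Egln1, the main hydroxylase of normal oxygen levels, had 8.79 and 8.95 with GSK-126 against 8.78 and 8.74 with DMSO, a difference of 0.11 (SE 0.09, adjusted p = 0.742). Thus Egln3 was lower on both treated arrays, and for Egln1 one treated array was level with the controls, with a difference of 0.03 without GSK-126 replicate 2. Car9, a surface carbonic anhydrase that is among the most widely used markers of hypoxia in tumours, had 6.46 and 6.25 with GSK-126 against 6.82 and 6.53 with DMSO. The difference of -0.32 (SE 0.14, adjusted p = 0.482) was opposite in sign to most of the other targets. It was -0.17 without DMSO replicate 1 and -0.47 without DMSO replicate 2. A second Car9 probe set gave -0.45 (SE 0.14), with 5.30 and 5.21 against 5.81 and 5.60 in DMSO.

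**Figure D2:**
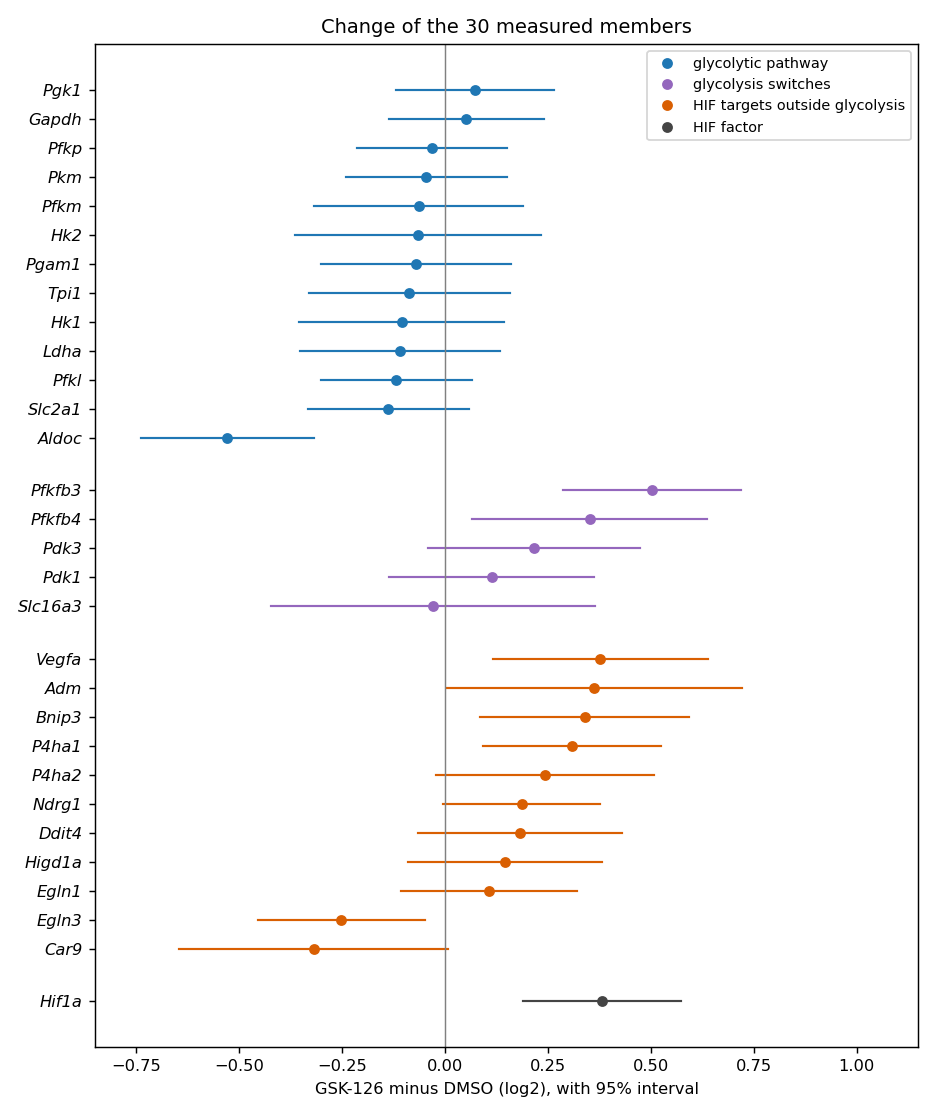
Difference between GSK-126 and DMSO (log2, horizontal axis) of the 30 measured members, with 95% intervals from limma, coloured by role and ordered by size within each role. Most orange HIF targets lie right of 0, most blue genes of the glycolytic chain lie just left of it, and Aldoc, Car9 and Egln3 stand apart on the left.

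The 5 genes that switch glycolytic flow had a median difference of 0.22. None passed in limma, and 2 higher and 0 lower had an unadjusted p below 0.05, against 4.64% and 5.93% of all genes. Pfkfb3 makes and Pfkfb4 makes or removes the sugar bisphosphate that activates phosphofructokinase. Pfkfb3 had 8.02 and 7.95 with GSK-126 against 7.53 and 7.44 with DMSO, the largest difference upward among the 30 members (0.50, SE 0.09, 1.42-fold, unadjusted p = 0.000779, adjusted p = 0.0989). Pfkfb4 had 5.92 and 5.88 with GSK-126 and 5.57 and 5.53 with DMSO, a difference of 0.35 (SE 0.12, adjusted p = 0.386). For both, arrays within a group lay far closer together than the groups.

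Pdk1 and Pdk3 encode kinases that shut pyruvate out of the mitochondrial citrate cycle by inhibiting pyruvate dehydrogenase. Pdk3 had 6.48 and 6.51 with GSK-126 against 6.32 and 6.23 with DMSO (difference 0.22, SE 0.11, adjusted p = 0.547). For Pdk1 the groups overlapped, with 7.0 and 7.12 against 6.89 and 7.01 in DMSO. Slc16a3, the lactate exporter MCT4, had 5.05 and 4.70 with GSK-126 and 4.96 and 4.84 with DMSO. Its treated arrays spanned both controls, and its difference of -0.03 had a 95% interval of -0.42 to 0.37.

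The 13 measured genes of the glycolytic chain had a median difference of -0.07. Their means were lower with GSK-126 for 11 and higher for 2, against 52% lower over all genes. Of all genes, 8487 were dim in both groups, and none of the 13 was. With dim genes left out, the median over all genes was -0.03, against -0.07 for the chain. How far the lower values of the chain were shared with other genes was not tested. Within the chain, the groups did not overlap for 5 lower and 2 higher genes, against 21.8% lower and 18.2% higher over all genes. In limma 0 passed, and 1 lower and 0 higher had an unadjusted p below 0.05, against 5.93% and 4.64% of all genes. The median of the chain was -0.13 with each array centred on its median and -0.04 after quantile normalization. Over all genes the median was then -0.06 and -0.02. Without GSK-126 replicate 2 or without DMSO replicate 2, the median of the chain was -0.12.

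Aldoc, an aldolase isoenzyme that splits fructose bisphosphate and is best known from brain, was the one member of the chain with a sizeable difference. It had 8.23 and 8.33 with GSK-126 against 8.86 and 8.76 with DMSO. Both treated arrays lay well below both controls, with a difference of -0.53 (SE 0.09), 1.44-fold lower, an unadjusted p of 0.000461 and an adjusted p of 0.0742. It passed when dim genes were left out of the fit (adjusted p = 0.0429) and with centred arrays (0.0448). The adjusted p was 0.394 without the intensity trend, 0.237 with the replicate block, 0.478 with all probe sets tested and 0.220 to 0.483 without 1 array.

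For the other 12, differences ran from -0.14 to 0.07, all 95% intervals included 0, and the intervals together spanned -0.36 (Hk2) to 0.27 (Pgk1). The lowest of the 12 was Slc2a1, the glucose transporter GLUT1, with 9.59 and 9.54 on GSK-126 arrays against 9.76 and 9.65 on DMSO arrays (-0.14, SE 0.08, adjusted p = 0.619). Of the hexokinases, which trap glucose in the cell, Hk1 differed by -0.11 (SE 0.11) and Hk2 by -0.07 (SE 0.13). Hk2 had 7.42 and 7.10 with GSK-126 against 7.26 and 7.39 with DMSO, so that its treated arrays lay on either side of the controls.

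The phosphofructokinase isoenzymes, which catalyse the committed step, lay within a narrow band. Pfkl had 9.28 and 9.30 with GSK-126 against 9.41 and 9.40 with DMSO, a difference of -0.12 (SE 0.08). Pfkm differed by -0.06 (SE 0.11) and Pfkp by -0.03 (SE 0.08). Further down the pathway, Tpi1, the triose phosphate isomerase, differed by -0.09 (SE 0.10), and its treated arrays at 10.69 and 10.94 spanned the control at 10.84. Gapdh, glyceraldehyde phosphate dehydrogenase, had 13.09 and 13.11 with GSK-126 against 13.06 and 13.03 with DMSO, a difference of 0.05 (SE 0.08). Gapdh has 3 probe sets of its own and 8 that also carry another name, and near-identical pseudogene copies make it uncertain as a single gene. Pgk1, the first enzyme of the chain to yield ATP, had 11.50 and 11.61 with GSK-126 against 11.49 and 11.47 with DMSO (0.07, SE 0.08).

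Pgam1, phosphoglycerate mutase, differed by -0.07 (SE 0.10) at its brighter probe set, where the groups overlapped. The other Pgam1 probe set gave -0.40 (SE 0.15), with 7.06 and 6.96 on GSK-126 arrays against 7.60 and 7.23 on DMSO arrays, and thus did not match the first in size. Pkm, pyruvate kinase, differed by -0.05 (SE 0.08), with 12.36 and 12.26 on the treated arrays against 12.33 and 12.38 on the controls. Ldha, which turns pyruvate into lactate, had 6.49 and 6.52 with GSK-126 against 6.62 and 6.60 with DMSO, a difference of -0.11 (SE 0.10, adjusted p = 0.783). Its arrays lay close together within each group, and the shift was small.

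Set side by side, the members Hk1 and Hk2, the 3 phosphofructokinase genes, Pfkfb3 and Pfkfb4, Pdk1 and Pdk3, and P4ha1 and P4ha2 each had differences of one sign, and Egln1 and Egln3 had opposite signs. The like signs hold for these members and not for whole families, since Pdk2 differed by -0.39 and Pfkfb2 by -0.05. Pdk4, at 0.30, had the sign of Pdk1 and Pdk3 (Pdk4 and Pfkfb2 are named after their values were seen). These contrasts between genes were not tested.

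The glycolytic chain and the HIF targets outside it were also set side by side on each array. Both treated arrays were read against the same DMSO mean, so their values share its error and are not independent. Averaged over genes and relative to that mean, the HIF targets stood at 0.14 on GSK-126 replicate 1 and 0.16 on replicate 2. The glycolytic chain stood at -0.10 and -0.09 on the same arrays. The HIF targets were thus 0.24 and 0.25 above the glycolytic chain with GSK-126. The same quantity was -0.02 and 0.02 on the DMSO arrays, which mirror each other by construction and show only the gap between both controls. The mean over all genes stood at 0.02 and -0.01 on the GSK-126 arrays. The difference of medians, glycolytic chain minus HIF targets, was -0.26, and it ran from -0.34 to -0.19 when 1 array was left out. Of the 11 HIF targets, 9 had a difference above the highest one in the glycolytic chain, that of Pgk1, and all 13 genes of the chain lay below the HIF median. No p is given for these scores because the genes were chosen, with earlier results of these data known. Outside the members, 27 other measured HIF-induced genes had a median of 0.07. The 21 other measured glycolytic isoenzymes and carriers had a median of 0.01.

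**Figure D3:**
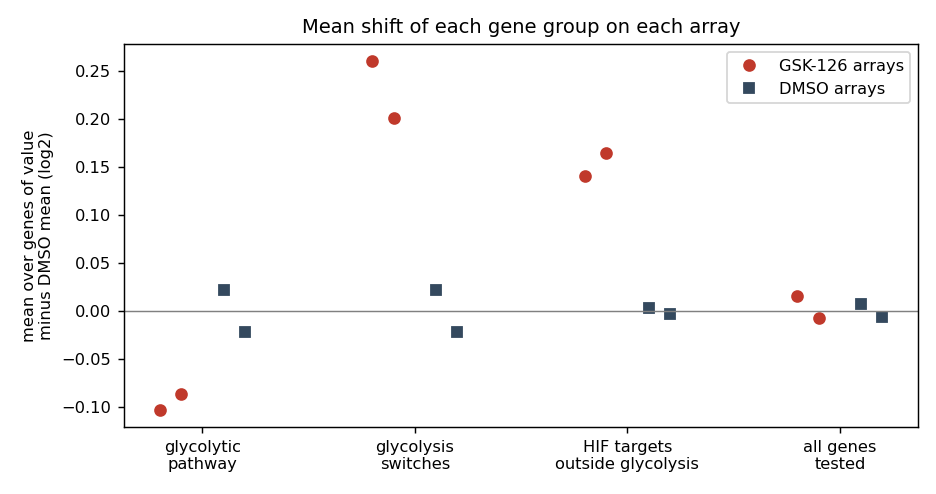
Mean over genes of each array's value minus the DMSO mean (log2, vertical axis) for the 3 gene groups and for all genes tested, GSK-126 arrays as red circles and DMSO arrays as grey squares. Values of the treated arrays share the DMSO mean they are set against, and those of the DMSO arrays mirror each other by construction. The treated arrays lie below 0 for the glycolytic chain (-0.10 and -0.09) and above 0 for the switches and the HIF targets.

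Isoenzymes and carriers outside the 34 added 24 genes, of which 21 were measured, with a median of 0.01. In this list 1 gene rose in limma and 0 fell, against 0.261% and 0.171% of all genes. Before adjustment 3 higher and 3 lower had a p below 0.05, against 4.64% and 5.93% of all genes. The gene that rose was Eno2, an enolase best known from neurons and also a HIF target, with 6.69 and 6.64 on GSK-126 arrays against 5.82 and 5.75 on DMSO arrays. The difference was 0.88 (SE 0.11), 1.84-fold, with an adjusted p of 0.0340. The call ended without the intensity trend (0.185), with the replicate block (0.136), with all probe sets tested (0.408) and without any 1 array (0.167 to 0.375). Slc16a7, the monocarboxylate carrier MCT2, had 6.54 and 6.38 with GSK-126 against 6.97 and 6.91 with DMSO (-0.48, SE 0.11, adjusted p = 0.191). Pdk2, another pyruvate dehydrogenase kinase, had 7.75 and 7.65 against 8.28 and 7.90 in DMSO (-0.39, SE 0.13, adjusted p = 0.370).

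A further list of 30 HIF-induced genes had 27 measured and a median of 0.07, lower than the 0.19 of the 11 targets described above. In limma 0 passed, and 6 higher and 1 lower had an unadjusted p below 0.05, against 4.64% and 5.93% of all genes. Means were higher for 15 genes and lower for 12, against 48% higher and 52% lower over all genes. Groups did not overlap for 10 higher and 2 lower genes and overlapped for 15, against 40.1% of all genes without overlap (18.2% higher and 21.8% lower). Plod2, a lysyl hydroxylase that shapes collagen crosslinks, had 5.91 and 6.03 with GSK-126 against 5.13 and 4.74 with DMSO. Its difference of 1.04 (SE 0.17), 2.06-fold, missed the threshold with an adjusted p of 0.0584 and passed with a robust prior (0.0497) and without dim genes (0.0274). The adjusted p was 0.235 without the trend, 0.173 with the replicate block, 0.478 with all probe sets tested and 0.204 to 0.487 without 1 array. Ero1a, the oxidase that forms disulfide bonds in the endoplasmic reticulum, differed by 0.31 (SE 0.08, adjusted p = 0.252). Gys1, glycogen synthase, differed by 0.34 (SE 0.09, adjusted p = 0.267).

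**Figure D4:**
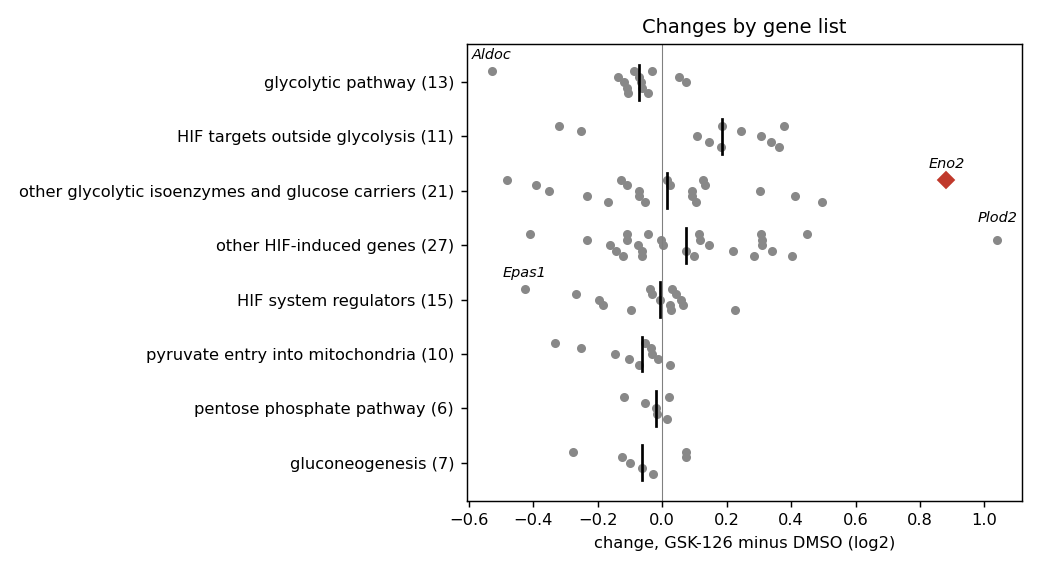
Difference between GSK-126 and DMSO (log2, horizontal axis) for each measured gene of 8 lists, with the number of genes in brackets and a black line at each median. The red diamond marks Eno2, the one gene past the threshold, and grey points did not pass. The lists beyond the first pair have medians between -0.06 and 0.07.

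Pairs of arrays correlated at 0.981 to 0.988 over all probe sets, and GSK-126 replicate 1 correlated more with both DMSO arrays (0.987 and 0.986) than with GSK-126 replicate 2 (0.981). Luminal epithelial markers were present in both groups (Epcam, Krt8 and Krt18 above 10.4 and Krt19 between 4.62 and 4.89), and 0 of the 6 passed. Ptprc, the defining marker of immune cells, lay between 3.37 and 3.67 on all arrays and 4 of 6 measured immune markers were dim in both groups. Cd68, which is strongest in macrophages, rose (9.16 and 9.12 with GSK-126 against 8.20 and 8.08 with DMSO, adjusted p = 0.0100). Summed on the linear scale, the immune markers ran from 640 to 662 on GSK-126 arrays and from 360 to 387 on DMSO arrays. Of the 6 genes, Cd68 and Csf1r had a higher mean with GSK-126 and Ptprc, Cd3e, Itgam and Adgre1 a lower one, and the median difference was -0.08. Endothelial sums were 90.3 to 107 with GSK-126 and 89.5 to 99.8 with DMSO, fibroblast sums 166 to 186 with GSK-126 and 170 to 176 with DMSO, and adipocyte sums 71.1 to 84.3 with GSK-126 and 79.2 to 81.1 with DMSO. Basal epithelial sums were 195 to 205 with GSK-126 and 266 to 271 with DMSO, and Oxtr in that list fell (6.35 and 6.24 with GSK-126 against 7.12 and 6.97 with DMSO, adjusted p = 0.0479). The part of these markers in the results was not tested, and in bulk samples fewer cells of a type and less RNA per cell cannot be told apart.

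**Figure D5:**
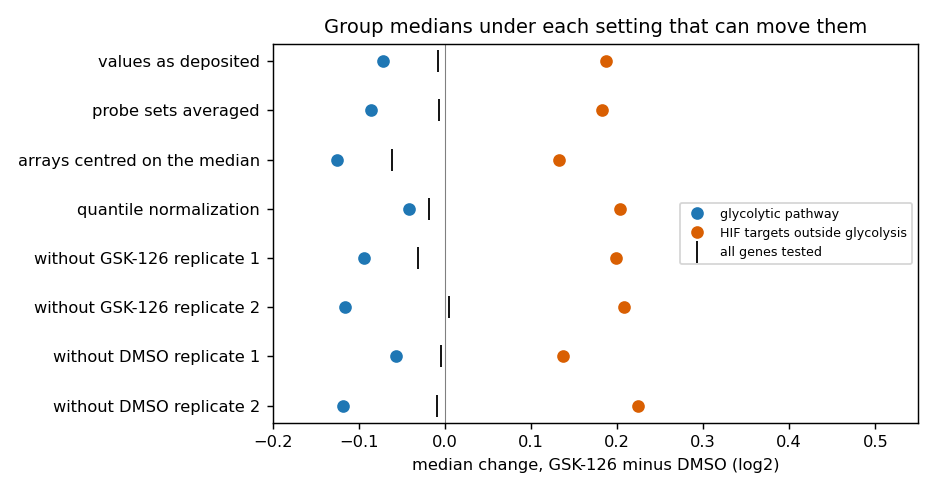
Median difference between GSK-126 and DMSO (log2, horizontal axis) for the glycolytic chain in blue, the HIF targets outside glycolysis in orange and all genes tested as black ticks, for the values as deposited and 7 alternatives (rows). The HIF median lay between 0.13 and 0.22 and the glycolytic median between -0.13 and -0.04 in every row.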

How the data were processed

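Per the labels, the deposited log2 values came from Expression Console, which ran robust multi-array averaging at the level of core exons. Affymetrix Power Tools, without a version, is named in the submitters' processing notes. No genome build is named in these sources. The scale is log2 by method and range, its centring is unstated, and array medians were 4.79 and 4.78 for GSK-126 and 4.74 and 4.73 for DMSO. For arrays, their number limits the precision.

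Of 41345 probe sets, 23521 carried 1 gene symbol, 1814 several and 16010 none, and genes were named only from the first kind. Each gene was read at its probe set with the highest mean. Differences were fitted over all 22180 genes with limma 3.58.1 (R 4.3.3), with an intensity trend in the prior variance. Its moderated tests were two-sided, p-values were adjusted by Benjamini-Hochberg across all genes, and the threshold was 0.05. The fit was checked on simulated data drawn from its own fitted prior variance. That check cannot show whether this prior suits the arrays. Pairs of arrays shared 142 to 181 identical values, so none was a copy. Medians of lists are descriptions without a test. The members and lists were chosen with earlier results of these data known. All members were named, with the called genes or up to 3 lowest p of each other list. Promoter windows came from RefSeq (GRCm38.p6). Alternatives were another prior, a filter on dim genes, averaged or separate probe sets, centring, quantile normalization, the replicate block and leaving out each array.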

Additional observations from a re-analysis of the deposited data

How the results depend on the processing

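Calls over all genes numbered 96 with the values as deposited, 0 without the trend in limma (1964 at an unadjusted p under 0.05), 149 without dim genes, 10 with the replicate block, 0 with all probe sets tested in limma (2921 at an unadjusted p under 0.05) and 0 to 4 without 1 array. Replicate numbers did not pair the arrays (correlation of deviations -0.03). With centred arrays, 117 genes were called. Of the members, 1 (Aldoc) passed without dim genes and 1 (Aldoc) with centred arrays, and 0 in limma under every other alternative with all 4 arrays. In these alternatives 8 to 10 members had an unadjusted p under 0.05 in limma. Over all genes it was 1926 without dim genes, 2124 with the replicate block and 2936 with centred arrays. The glycolytic median was -0.13 with centred arrays and -0.041 after quantile normalization, and -0.12 to -0.056 without 1 array. The HIF median was 0.13 with centred arrays and 0.20 after quantile normalization, and 0.14 to 0.22 without 1 array. Their difference ran from -0.34 to -0.19 without 1 array. The median over all genes also moved, to -0.06 with centred arrays and -0.02 after quantile normalization. It was -0.03 without dim genes, where the glycolytic and HIF medians stayed the same. Counts of directions under the alternatives were added after seeing the data. They gave 9 to 12 of 13 glycolytic genes lower and 9 of 11 HIF targets higher. The 12 came with centred arrays, where the median over all genes was also lower, at -0.06. Shares of directions over all genes are not given for these alternatives, so the counts have no background. Leaving out an array cannot turn a gene whose groups do not overlap. Members whose sign turned had differences between -0.09 and 0.05 in the values as deposited. Gapdh was at -0.0017 with centred arrays. Without 1 array, the ranges were -0.23 to 0.094 for Hk2, -0.14 to 0.015 for Pfkm, -0.21 to 0.041 for Tpi1, -0.17 to 0.026 for Pgam1, -0.093 to 0.0022 for Pkm and -0.20 to 0.14 for Slc16a3. The causes were not tested. The 40th percentile of mean level is no measure of background, no background values were used here, and Slc16a3 lay close to that percentile.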

Other observations

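Routes that branch from glycolysis held no gene past the threshold in limma. Of 11 genes of pyruvate entry into mitochondria, 10 were measured, with a median of -0.06. A lower mean with GSK-126 was found for 9, against 52% of all genes. In limma 0 passed the threshold, and 0 higher and 2 lower genes had an unadjusted p below 0.05, against 4.64% and 5.93%. Pdhb, a subunit of pyruvate dehydrogenase, had 8.06 and 8.05 with GSK-126 against 8.34 and 8.27 with DMSO (-0.25, SE 0.09, adjusted p = 0.382). Pdp2, a phosphatase that reactivates the same complex, had 5.74 and 5.66 with GSK-126 against 6.01 and 6.05 with DMSO (-0.33, SE 0.12, adjusted p = 0.403). Pdpr, a regulator of such a phosphatase, differed by -0.15 (SE 0.11).

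The pentose phosphate pathway, which draws glucose phosphate off for nucleotides and reducing power, had 6 of 8 genes measured and a median of -0.02. In limma 0 passed, and 0 had an unadjusted p under 0.05. Pgd, Rpe and Pgls had differences of -0.12, -0.05 and 0.02 (SE 0.11, 0.09 and 0.10). Gluconeogenesis, the reverse route, had all 7 genes measured and a median of -0.06, with 3 genes dim in both groups, 0 past the threshold in limma and 0 at an unadjusted p under 0.05. Fbp1, dim in both groups, differed by -0.28 (SE 0.18), Pck2 by -0.10 (SE 0.11) and G6pc3 by -0.13 (SE 0.16).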
